A study of Ovis aries with 49 samples.

Results

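Brain and kidney of the same fetal sheep were compared at 2372 pairs of a single-nucleotide polymorphism (SNP) and a fetus in which the SNP was listed in both tissues. They were found by matching 15 brain libraries with 15 kidney libraries by diet and replicate number, and by keeping autosomal SNPs only. The pairs covered 1031 SNPs in 751 genes, out of 9723 autosomal entries in brain, 11569 in kidney and 39974 entries in the 49 samples of the whole series. A further 7351 entries were listed in brain only and 9197 in kidney only. The study measured RNA from each parental chromosome in F1 fetuses of Western white-faced ewes and Dorset rams, taken at gestation day 135. The ewes received, from gestation day 30, 140% (Over, overfed, 4 fetuses of 4 ewes), 60% (Res, restricted, 4 fetuses of 4 ewes) or 100% (Con, control, 7 fetuses of 4 ewes) of the energy set by the National Research Council. Blood DNA of 4 rams gave the paternal genotypes. There was no cross in the other direction, so a paternal allele is always a Dorset allele, and fetuses of 1 ewe share both parents.

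In a diploid animal most genes are transcribed from both parental copies. Genomic imprinting silences the copy from 1 parent through marks set in the germ line, and several imprinted genes are silenced in some tissues and not in others. Regulatory sequence variants act differently: they raise or lower whichever copy carries them, and their effect can depend on the factors present in a tissue. Tissues of 1 animal carry the same genotype, so a SNP can be followed from one tissue to the other.

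Each deposited entry gives reads per parental allele at 1 heterozygous SNP. All entries had at least 20.5 reads, and at least 70.02% of them came from 1 allele. A SNP with fewer reads or with a more balanced share is not listed, and these cases cannot be told apart. The paternal share is the paternal reads as a percent of both. A shared SNP was therefore one-sided in both tissues. The lists held 261 to 1270 autosomal SNPs per brain library (median 588) and 171 to 1146 per kidney library (median 863). Their reads summed to 10128.5 to 70366 per brain library and 6504 to 62016.5 per kidney library. Every listed SNP lay in the genotype list of its own fetus (100%), against 44.5% to 77.2% in the list that matched best among the other fetuses. Entries are given only at SNPs heterozygous in the fetus of that label, so the 100% was set in advance. It could not show a swapped library. Kidney tubule markers went with the labels, with 6 of 15 listed, each in kidney only. Among podocyte markers, PODXL was listed in both tissues in 5 fetuses and SYNPO in brain only, in 1. The oligodendrocyte marker CLDN11 went against the labels, being listed in kidney only, in 1 fetus. Neurofilament gene NEFM was listed in brain only, in 5 of 8 fetuses that could show it, whereas MAP2 and ENO2 were listed in both tissues and SNAP25 in kidney only, in 1 fetus. No astrocyte marker (0 of 7) and no blood marker (0 of 6) was listed in either tissue, so these lists say nothing on such cells.

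The first question was which SNPs were listed in only 1 tissue. In each fetus both lists were largely separate: 24.5 ± 8.72% of the brain SNPs were also listed in kidney, and 21.7 ± 8.70% of the kidney SNPs were also listed in brain (SD, n = 15 fetuses). SNPs listed in brain only numbered 198 to 875 per fetus, with a median of 426. SNPs listed in kidney only numbered 117 to 980, with a median of 657. Brain held the larger one-tissue set in 7 fetuses and kidney in 8. The log2 ratio of brain-only to kidney-only SNPs averaged -0.21 ± 1.36, which did not pass an exact two-sided sign-flip permutation test over the 15 fetuses (p = 0.550, also after Benjamini-Hochberg adjustment over 5 tests per fetus). The tissue with more listed reads had the larger one-tissue set in every fetus. Those reads are summed over the listed SNPs, so a longer list tends to hold more of them whatever the depth. Median depth at shared SNPs was also higher in brain in each of those 7 fetuses and lower in brain in each of the 8 others.

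**Figure D1:**
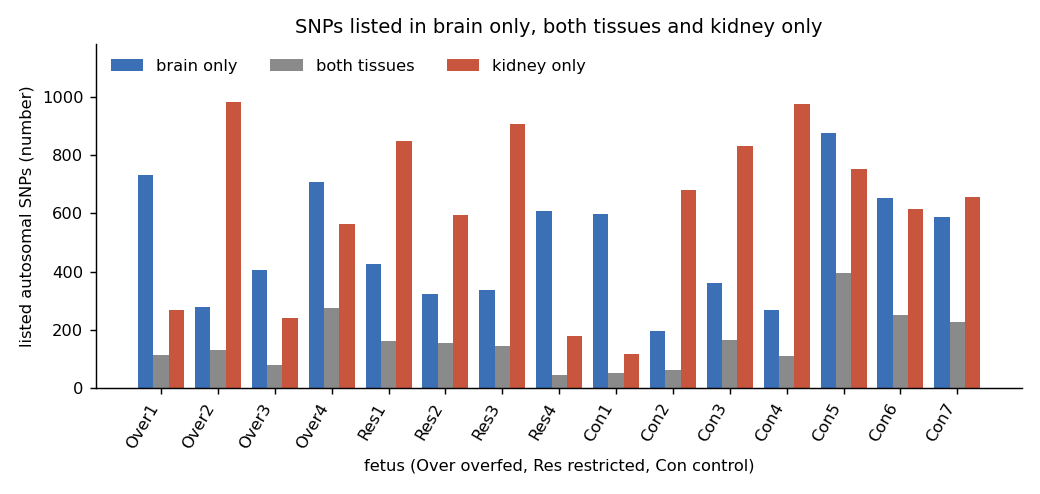
Number of autosomal SNPs (vertical axis) listed in brain only, in both tissues and in kidney only, for each of 15 fetuses (horizontal axis, overfed, restricted and control). Shared SNPs number 45 to 395, and the larger one-tissue set is the brain set in 7 fetuses and the kidney set in 8.

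Overlap rose with the reads at a SNP. Of brain SNPs with 20.5 to 24.5 reads, 13.8 ± 7.32% were also listed in kidney, and of those with 100 reads or more, 61.7 ± 11.5% (SD, n = 15). Of kidney SNPs in the same classes, 10.2 ± 7.90% and 57.8 ± 8.51% were also listed in brain. Even the deepest SNPs of one tissue were thus often absent from the list of the other. Of the brain-only entries, 40.8% lay in genes that kidney listed in no fetus, 46.4% in genes that kidney listed in other fetuses, and 12.8% in genes that kidney listed at another SNP of the same fetus. For kidney-only entries the shares were 44.8%, 42.4% and 12.8%. The one-tissue SNPs were shallower, with a median of 28 reads in brain and 29.5 in kidney.

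**Figure D2:**
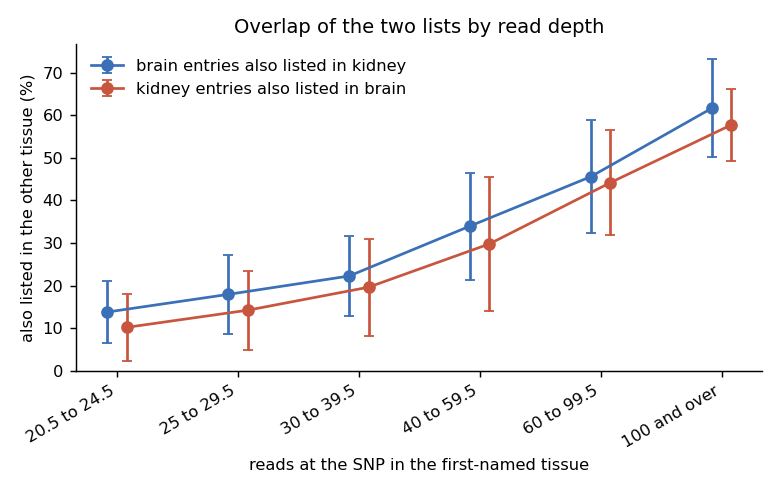
Percent of listed SNPs that were also listed in the other tissue (vertical axis) by the reads at the SNP in the tissue named first (horizontal axis, 6 classes), as means over 15 fetuses with SD bars. Both curves climb, in brain to 61.7% and in kidney to 57.8% at 100 reads or more.

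Counted per gene, 30 of 339 genes differed in listing (8.85%), by an exact two-sided sign test over the fetuses that listed the gene in 1 tissue only, with Benjamini-Hochberg adjustment. Of these, 11 genes were listed in brain only more often (3.24%) and 19 in kidney only more often (5.6%). The calls were fragile. Without Con6, Con7, Over2, Over4, Res1 or Res2, each left out singly, the count was 0, and without Con3 or Con4 it was 11. Without Con4 these were 7 genes of brain and 4 of kidney, so the larger direction also changed. It was also 0 with 1 fetus per ewe, without SNPs heterozygous in 10 or more fetuses, and without the 6 fetuses that had a library under 400 SNPs.

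Among the genes of the brain list, ME3, a mitochondrial malic enzyme, and ROGDI were each listed in brain only in 12 fetuses and in kidney only in 0 (adjusted p = 0.0368 for both). ME3 turned on 1 SNP at chr21:8501795, where the paternal share in brain was 25.1 ± 3.22% at 61.96 ± 26.9 reads (SD, n = 12). ROGDI turned on 1 SNP at chr24:3905368, with a paternal share in brain of 19.7 ± 5.81%. Both SNPs lay on the maternal side in each fetus that listed them. SLC22A17, a solute carrier family member, was listed in brain in all 15 fetuses, in 3 of them also in kidney. Its reads in brain ran from 64 to 632.5 per SNP. PANK2, a pantothenate kinase of coenzyme A synthesis, and POLR2E, a subunit shared by the RNA polymerases, were listed in brain only in 11 fetuses each. DCAF6 and MRPL1 were listed in brain only in 10 fetuses each, and EMC10 and LOC101112864 in 9 each (adjusted p = 0.0441 for these 4).

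Among the genes of the kidney list, IGF1R, the receptor for insulin-like growth factor 1, was listed in kidney only in 11 of 14 informative fetuses and in brain in none (adjusted p = 0.0368). Its SNP at chr18:7211415 had a paternal share in kidney of 17.9 ± 4.81% at 40.7 ± 14.6 reads (SD, n = 11). BACE1, the beta-secretase that cuts amyloid precursor protein and is best known from neurons, was listed in kidney only in 11 fetuses. Its paternal share in kidney ran from 83.8% to 91.7% at chr15:27426048. ESYT1, a membrane tether of the endoplasmic reticulum, and TMEM179B were also listed in kidney only in 11 fetuses each. ACAD10, CTDSPL and SHMT2, the mitochondrial serine hydroxymethyltransferase, were listed in kidney only in 10 fetuses each. The lysosomal acid ceramidase ASAH1, the calpain protease CAPN2 and CYYR1 followed with 9 each (adjusted p = 0.0441 for these 6). CYYR1 had paternal shares from 5.70% to 83.3% across fetuses, unlike IGF1R and BACE1, which kept 1 side.

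Marker and imprinted genes were counted from lists chosen with earlier results known. UMOD, which encodes uromodulin of the thick ascending limb, was listed in kidney only in 5 fetuses at 392 reads per SNP. AQP1 and the thiazide-sensitive transporter gene SLC12A3 were listed in kidney only in 3 fetuses each, CDH16 in 2, and AQP2 and CUBN in 1 each. PODXL, of the podocyte surface, was listed in both tissues in 5 fetuses and in kidney only in 3. In the 4 fetuses that shared a SNP of PODXL, its paternal share averaged 65.1% in brain and 70.7% in kidney. MAP2, of the neuronal cytoskeleton, had 72.5% in brain and 72% in kidney in 1 fetus. Collagen and other matrix genes counted 22 gene-fetus cases in brain only and 88 in kidney only, with 0 of 3 tested genes called. Over all 5354 listed genes these cases numbered 5279 and 6263. Genes of synapses and neurotransmission counted 19 cases in brain only and 9 in kidney only, with 0 of 1 tested gene called.

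The next comparison was the paternal share at shared SNPs. Over all of them the mean paternal share was lower in brain, 39.8 ± 5.54%, against 42.3 ± 4.90% in kidney (SD, n = 15 fetuses). The difference averaged -2.52 ± 1.52 percentage points and was negative in 14 of 15 fetuses (exact two-sided sign-flip permutation test, p = 0.000183, adjusted p = 0.000916). It ran from -5.92 points in Con4 to +0.53 points in Con1. This and the other tests per fetus took the 15 fetuses as units. They come from 12 ewes, and littermates are not independent, so these p values may be too small. The share of the allele with more reads was higher in brain, 83.7 ± 1.12%, against 82.2 ± 0.634% in kidney, a difference of +1.48 ± 1.34 points and positive in 13 of 15 fetuses (exact permutation p = 0.000854, adjusted p = 0.00142). The reference base, the one in the reference genome, took 39.2 ± 4.51% of reads in brain and 41.6 ± 4.06% in kidney, lower in brain in 14 of 15 fetuses (exact permutation p = 0.000366, adjusted p = 0.000916). Median depth at shared SNPs did not pass the test, with a log2 difference of -0.21 ± 0.67 (exact permutation p = 0.242, adjusted p = 0.303).

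The fetuses were also split by which list held more reads. The part of depth in these differences was not tested, and neither was the difference between the groups of fetuses. In the 7 fetuses whose brain list held more reads the paternal share differed by -2.11 ± 1.44 points (exact permutation p = 0.03125). In the 8 whose kidney list held more reads it differed by -2.87 ± 1.60 points (exact permutation p = 0.00781). The reference base differed by -2.40 ± 1.33 points in those 7 fetuses (exact permutation p = 0.0156) and by -2.52 ± 2.28 points in those 8 (exact permutation p = 0.0234). The share of the allele with more reads differed by 0.76 ± 1.17 points in those 7 fetuses (exact permutation p = 0.188) and by 2.12 ± 1.19 points in those 8 (exact permutation p = 0.00781, the smallest that 8 fetuses can give).

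The paternal difference was unevenly spread over the SNPs. At the 1114 shared pairs whose SNP was heterozygous in 10 or more of the 15 fetuses, the paternal share was 32.4 ± 4.52% in brain and 36.2 ± 3.91% in kidney, lower in brain in 15 of 15 fetuses. At the other 1258 pairs it was 45.9 ± 7.47% in brain and 47.3 ± 7.12% in kidney, lower in brain in 12 of 15, a difference of -1.42 points (exact two-sided sign-flip permutation test, p = 0.0170). Its adjusted p was 0.0851 over the 5 tests per fetus and 0.0274 over the 45 tests on classes of shared SNPs. The difference between both classes of SNP was itself -2.31 ± 2.71 points (exact sign-flip permutation test, adjusted p = 0.0138). The father carried the reference base at 2076 pairs, where the share was 37.9 ± 5.45% in brain and 40.8 ± 4.96% in kidney. The father carried the alternative base at 296 pairs, with 52.8 ± 11.7% in brain and 52.6 ± 10.9% in kidney. These classes also differed, by -3.01 ± 4.34 points (adjusted p = 0.0203). Parent and base cannot be told apart for most pairs, because the paternal base was the reference base in 86.2 ± 4.49% of them. Same-side pairs on the maternal side in kidney had a paternal share of 16.1 ± 1.58% in brain and 18.5 ± 0.905% in kidney, and those on the paternal side 83.4 ± 1.14% in brain and 83.4 ± 1.19% in kidney.

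Of the 2372 pairs, 50 lay on opposite parental sides in brain and kidney (2.11%, 95% Clopper-Pearson interval 1.57% to 2.77%, counting error only). Per fetus, 98.0 ± 1.82% of the shared SNPs kept the same side, from 93.7% in Con2 to 100% in 4 fetuses. The 50 pairs fell in 26 genes, and 3 genes repeated in more than 1 fetus. They held 25 of the pairs. Among pairs with at least 60 reads in both tissues, 1 of 425 was on opposite sides (0.235%), against 2.83% of pairs whose lower depth was under 30 reads.

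TUBB6, a beta-tubulin of microtubules, stood on opposite sides in 9 fetuses at 4 SNPs between chr23:43122080 and chr23:43122291. Over those 18 pairs its paternal share was 7.38% to 29.0% in brain and 94.9% to 100% in kidney. Lung listed all 18 pairs as well, at 98.7% to 100% paternal, on the side of kidney. In Con6, which listed all 4 SNPs, the share over them was 14.8% in brain and 97.7% in kidney, at 112 reads per SNP in brain and 32.9 in kidney. A different SNP, at chr23:43122505, was shared in Con2 and was paternal in both tissues, with 99.0% in brain and 79.3% in kidney. The gene as a whole differed by -4.61 ± 0.75 on the logit scale (SE, n = 10, limma adjusted p = 0.00113), where the logit is ln of the paternal over the maternal read number. With at least 40 reads in both tissues the call was lost (limma adjusted p = 0.0529). Tubulin genes form a family with closely similar coding sequences, so the assignment of these reads to TUBB6 is uncertain.

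PPP3CB, the beta catalytic subunit of the calcineurin phosphatase, was on opposite sides in all 4 fetuses that shared its SNP at chr25:29209357. The paternal share was 0.897%, 3.56%, 4.23% and 7.08% in brain, against 70.6%, 83.6%, 72.1% and 79.1% in kidney, for Con4, Con5, Con6 and Res2. Brain held 111.5 to 351 reads there and kidney 21.5 to 33.5, so the kidney values rest on few reads. The logit difference was -4.43 ± 0.29 (SE, n = 4, limma adjusted p = 0.000172). Con4 and Con6 share a ewe, so these 4 fetuses are not all independent. ATP6V0D1, a subunit of the proton pump of lysosomes and endosomes, showed the same direction in Con5, Con6 and Con7 at chr14:34300831. Its paternal share was 0%, 0% and 4.44% in brain and 83.7%, 87.0% and 70.7% in kidney, at 20.5 to 42.5 reads, and the logit difference was -5.15 ± 0.53 (SE, n = 3, limma adjusted p = 0.00162). Con5 and Con7 share a ewe, so the gene rests on 2 ewes and was not tested with littermates averaged. For both genes the SNP was heterozygous in 13 or 14 fetuses but listed in both tissues in few of them. A fetus with a more balanced share in 1 tissue could not be among these. The lowest kidney shares, 70.6% for PPP3CB and 70.7% for ATP6V0D1, lie close to the 70.02% seen as the lowest in the lists.

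The other 23 genes were on opposite sides in 1 fetus each, and 23 of their 25 pairs had under 40 reads in 1 tissue. The paternal allele led in brain in 12 of these pairs and the maternal allele in 13. COG3, of the Golgi tethering complex, was one of them, with 90.7% in brain and 29.5% in kidney in Con6 at 21.5 and 22 reads. Its SNP at chr10:15971000 had A as the reference and G as the alternative base and was heterozygous in 15 fetuses. COG3 is also on the list of RNA editing enzymes and their known targets. Whether editing had a part in these values was not tested. GRP, the gastrin-releasing peptide gene, chosen after its values were seen, was the other gene with several SNPs. In Con2 its 3 SNPs had paternal shares of 6.67% to 8.99% in brain and 83.2% to 88.2% in kidney. Lung listed 4 of these 25 pairs, each on the side of kidney.

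Per gene, 25 of 245 genes with values in at least 3 fetuses differed in paternal share (10.2%), by limma on the within-fetus logit difference with Benjamini-Hochberg adjustment. The share was higher in brain in 2 genes (0.816%) and lower in 23 (9.39%). Over all 245 genes the median logit difference was -0.20, with 162 lower and 83 higher in brain. Of the 25 called genes 20 (80%) had a shared SNP heterozygous in 10 or more fetuses, against 51.8% of the 220 genes not called, and 23 had only the reference base as the paternal base, against 185 of the genes not called. Without such SNPs 4 of 126 genes were called: LOC105609801, RAB1A, TLN2 and TUBB6. A SNP has to pass the filter on share in both tissues, so a gene that was balanced in 1 tissue could not enter these tests.

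**Figure D3:**
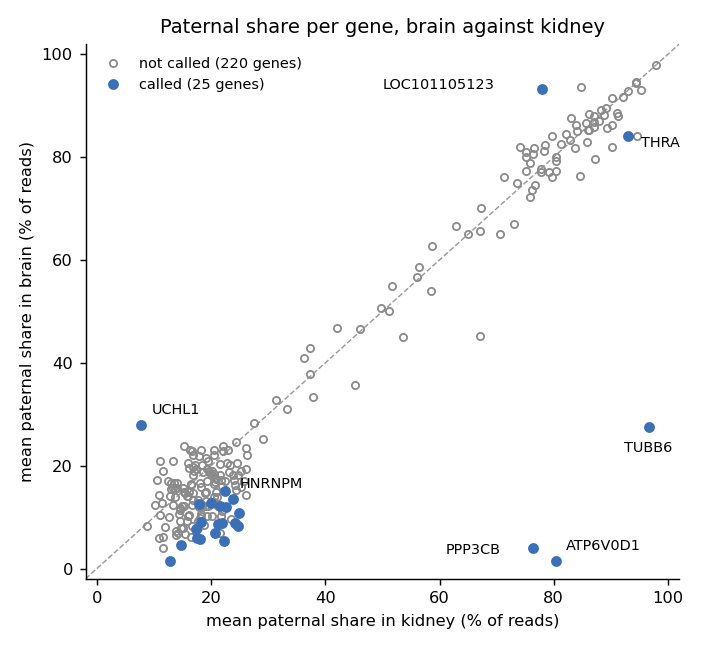
Mean paternal share per gene in brain (vertical axis, percent of reads) against kidney (horizontal axis, percent of reads) for 245 genes, with equal shares on the dashed line. The 25 called genes are filled; TUBB6, PPP3CB and ATP6V0D1 sit far below the line, and most of the others lie on the maternal side in both tissues.

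The usual called gene was more one-sided towards the mother in brain: 21 of the 23 lower genes had a more unequal share in brain than in kidney. On the maternal side a lower paternal share is a more unequal one by definition, so this count mostly restates the direction of the calls. In kidney 20 of the 25 called genes lay on the maternal side, against 169 of the 245 tested. GPI, glucose-6-phosphate isomerase of glycolysis, had a paternal share of 0% to 10.2% in brain (median 6.01%) and 9.46% to 25% in kidney (median 17.6%) at chr14:43982215. It was lower in brain in 12 of 12 fetuses, by -1.32 ± 0.17 on the logit scale (SE, limma adjusted p = 0.000172). RAB1A, a GTPase of transport from the endoplasmic reticulum to the Golgi, had 3.39% to 5.47% in brain and 7.62% to 21.7% in kidney at chr3:43033215, without overlap in 7 fetuses. Its depth was alike, 110 ± 57.2 reads in brain and 111 ± 49.5 in kidney (SD), and its logit difference was -1.21 ± 0.17 (SE, limma adjusted p = 0.00113). MTCH1, a protein of the mitochondrial outer membrane, had 0.985% to 11.8% in brain and 12.1% to 29.3% in kidney, without overlap in 11 fetuses.

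Several further genes of this kind rested on few fetuses. TLN2, a talin that links integrins to actin, had 6.74%, 5.73% and 3.64% in brain, against 25.2%, 20.0% and 21.7% in kidney, for Con3, Con5 and Over2. LOC105609801, which has no gene name in the files, had 0% to 2.02% in brain and 5.45% to 23.1% in kidney in 5 fetuses. Its call was lost with at least 40 reads (limma adjusted p = 0.0529) and without the fetuses that had a library under 400 SNPs (limma adjusted p = 0.0559). The kinase gene GSK3A had 0% to 14.1% in brain and 18.2% to 29.8% in kidney in 4 fetuses, and its call was lost without Con5 (adjusted p = 0.0627), Res1 (adjusted p = 0.0744) or Res2 (adjusted p = 0.0632). RANGAP1, the GTPase activator of nuclear transport, had 6.41% to 12.6% in brain and 17.5% to 27.8% in kidney in 4 fetuses. UBE2D2, a ubiquitin-conjugating enzyme, had 1.64% to 16.4% in brain and 16% to 28.4% in kidney in 10 fetuses, lower in brain in each. The brain and kidney shares of TLN2, LOC105609801, GSK3A and RANGAP1 did not overlap, whereas those of UBE2D2 touched. Lack of overlap does not mark out called genes. The shares of MPRIP (6 fetuses) and CTNNA1 (3 fetuses) did not overlap either, and neither gene was called. How many of all tested genes lacked overlap is not given here.

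The remaining called genes, listed here after their values were seen, were lower in brain, with mean differences from -5.42 points (ATP5G1) to -14.03 points (TMX2). Those on the maternal side in both tissues were TMX2, SYTL2, RAB14, PTOV1, TBCB, PRRC2A, FLOT1, HNRNPM, DENND5A, ATP5G1 and KIDINS220. TMX2, a thioredoxin-related membrane protein, had 2.15% to 18.2% in brain and 20.2% to 28.7% in kidney in 13 fetuses, without overlap. The call of ATP5G1 was lost without any of 8 fetuses left out singly (Con1, Con4, Con6, Over1, Over2, Over4, Res1 or Res4, limma adjusted p from 0.0503 to 0.0763), and that of KIDINS220 without Con3, Con6, Con7 or Over2 (limma adjusted p from 0.0734 to 0.1002). THRA, a thyroid hormone receptor, was the one on the paternal side in both tissues, with 84.0 ± 7.15% in brain and 93.0 ± 3.61% in kidney (SD, n = 11, limma adjusted p = 0.0447). Its call was lost without Con2, Con3, Con4, Over2, Over3, Res1 or Res2, each left out singly (limma adjusted p from 0.0518 to 0.0932).

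Few genes of the pathway lists, chosen with earlier results known, could be tested for share, so their counts are set beside the 10.2% called over all genes and say little about the lists. Of the oxidative phosphorylation genes 2 of 45 could be tested and 1 was lower in brain (ATP5G1, a subunit of ATP synthase), with a median logit difference of -0.25, against -0.20 over all 245 genes. None of the 2 tested genes of neuronal cytoskeleton and motors was called (median -0.12). Among RNA editing enzymes and their known targets none of 2 was called (median -0.22). There the coatomer gene COPA averaged 10.5 ± 8.87% in brain and 18.2 ± 7.68% in kidney at shared SNPs (SD, n = 6, limma adjusted p = 0.0757), lower in brain in 6 of 6 fetuses. Over all listed entries of COPA, shared or not, the paternal share was 49.3% in brain and 18.8% in kidney. The splicing factor gene SON averaged 80.96 ± 4.98% in brain and 75.1 ± 3.04% in kidney (SD, n = 6, limma adjusted p = 0.256), higher in brain in 6 of 6. AZIN1, a regulator of polyamine synthesis, had 11.8% in brain and 20.4% in kidney in 1 fetus. DCTN1, a dynactin subunit of the motor list, averaged 12.2% in brain and 18.9% in kidney over 7 fetuses.

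The called genes with a higher paternal share in brain were UCHL1 and LOC101105123. UCHL1, a ubiquitin hydrolase abundant in neurons, had 29.5%, 25.6% and 28.7% in brain, against 15.9%, 4.13% and 3.31% in kidney, for Con3, Con4 and Con6. It was thus less one-sided in brain, and it had 368.75, 236 and 778 reads per SNP in brain, against 56.75, 206 and 151 in kidney (logit difference 1.73 ± 0.37, SE, n = 3, limma adjusted p = 0.0368). Con4 and Con6 share a ewe, so UCHL1 rests on 2 ewes and was not tested with littermates averaged, which left LOC101105123 as the 1 gene called higher in brain. With no block for the fetus the adjusted p of UCHL1 was 0.0624. LOC101105123 had 82.1% to 97.5% in brain and 71.9% to 83.3% in kidney in 6 fetuses at chr23:37727079, higher in brain in each (logit difference 1.52 ± 0.27, SE, limma adjusted p = 0.00541). AGRN, encoding agrin of basement membranes and synapses, averaged 20.95 ± 7.35% in brain and 11.03 ± 4.09% in kidney (SD, n = 9) and did not pass (adjusted p = 0.0509). It passed without Con2, Con4, Con6, Over2, Res1, Res3 or Res4, each left out singly, with adjusted p from 0.0170 to 0.0487. MPRIP averaged 23.8 ± 4.12% in brain and 15.2 ± 2.34% in kidney (SD, n = 6, adjusted p = 0.0685), and SLC25A46 93.6 ± 4.83% in brain and 84.7 ± 11.8% in kidney (SD, n = 3, adjusted p = 0.0898).

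**Figure D4:**
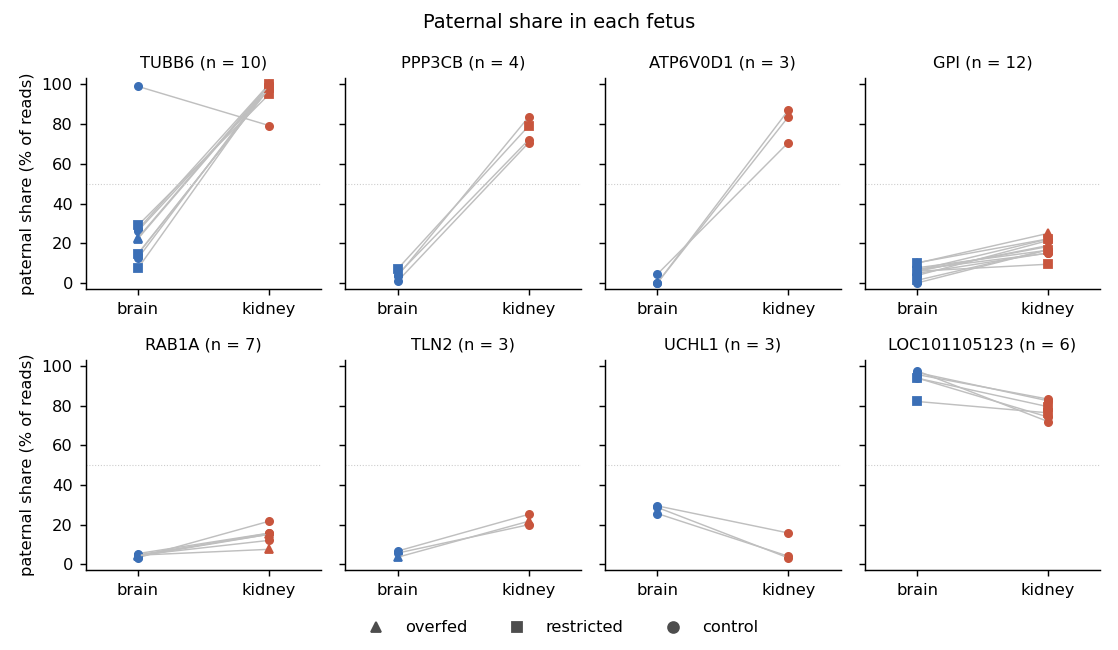
Paternal share (vertical axis, percent of reads) in brain and kidney for 8 genes, each line 1 fetus and each marker shape a diet. The lines of PPP3CB and ATP6V0D1 and those of 9 of the 10 fetuses of TUBB6 run from the maternal side in brain to the paternal side in kidney, while Con2 is paternal in both for TUBB6. GPI, RAB1A and TLN2 stay on the maternal side with lower values in brain, and UCHL1 and LOC101105123 are higher in brain.

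Read depth at shared SNPs gave the only view of level in these lists. It was taken as log2 mean reads per shared SNP, brain minus kidney, centred in each fetus on the median over its genes, because that median ran from -1.36 to +0.94. By limma 115 of 245 genes differed (46.9%), 67 higher in brain (27.3%) and 48 lower (19.6%). Without centring 57 genes were called, 24 higher and 33 lower in brain, so the split between directions rests on the scaling. Scaled by the total reads of each library, 86 were higher and 41 lower. A SNP drops out under 20.5 reads in either tissue, so large differences are understated. In tissue pieces, fewer cells that express a gene and less RNA per cell cannot be told apart.

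No gene of the neuron list could be tested for depth, and 1 of 2 genes of neuronal cytoskeleton and motors was deeper in brain (median log2 difference 0.14, against 0.02 over all 245 genes). Among the genes deeper in brain, CX3CL1, the chemokine fractalkine, had 354, 202.5, 113.5 and 88 reads in brain, against 37, 25.5, 32 and 26 in kidney, for Con5, Con6, Res1 and Res2. Its centred log2 difference was 2.61 ± 0.22 (SE, n = 4, limma adjusted p = 5.19e-06). PPP3CB led with 3.07 ± 0.20 (SE, n = 4, limma adjusted p = 6.6e-07), the largest difference among the called genes with 1 sign in every fetus. Of its fetuses, Con4 and Con6 share a ewe. SLC22A17 had 293, 250.25 and 83 reads in brain, against 60, 36.25 and 34.5 in kidney, for Con7, Res2 and Res3. RTN4, which encodes the neurite growth inhibitor Nogo, had 79.5 to 387 reads in brain and 47 to 117.5 in kidney in 7 fetuses, with a log2 difference of 1.94 ± 0.16 (SE, limma adjusted p = 6.6e-07). Calmodulin gene CALM2 differed by 2.31, SPOCK2, a brain proteoglycan, by 2.18, RHBDD2 by 2.17, UCHL1 by 2.14, HMGCS1, of cholesterol synthesis, by 2.01 and LOC101119975 by 2.54. Each of these genes was deeper in brain in every fetus tested after centring. CALM2 belongs to a set of calmodulin genes of closely similar sequence, so its reads are uncertain.

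Genes deeper in kidney were led by PEG3, a zinc finger gene expressed from the paternal copy. PEG3 had 22.75 to 72.1 reads per SNP in brain (median 38.0) and 33.25 to 366 in kidney (median 220.5) in 8 fetuses. The log2 difference was -2.10 ± 0.18 (SE, n = 8, limma adjusted p = 6.6e-07), lower in brain in 8 of 8. The adhesion genes CTNNA1, alpha-catenin, and ITGB5, an integrin subunit, differed by -1.75 and -1.56. The scaffold gene AHNAK had 21.5 to 36.9 reads per SNP in brain and 44.7 to 191.5 in kidney in 7 fetuses, before centring. CCBL1, a cysteine conjugate beta-lyase and kynurenine aminotransferase, had 29.5 to 50.5 reads in brain and 71 to 233.5 in kidney in 6 fetuses, also before centring. AIF1L differed by -1.43, C2H9orf3 by -1.31, the heat-inducible chaperone gene HSPA1A by -1.14 and LOC101107401 by -1.14. With no block for the fetus the calls of these 4 genes were lost (limma adjusted p from 0.0629 to 0.130). HSPA1A has a near-identical neighbour gene, so its reads are uncertain.

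**Figure D5:**
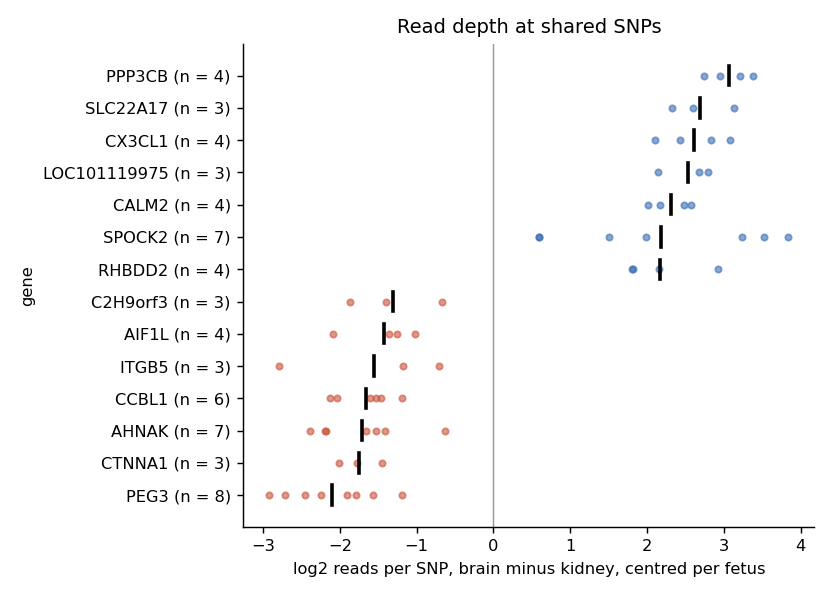
Centred log2 reads per shared SNP, brain minus kidney (horizontal axis), for the 7 genes with the largest called difference in each direction among those with 1 sign in every fetus (vertical axis), each point 1 fetus and each bar the mean. All points of the 7 genes deeper in brain lie above 0, and all points of the 7 others lie below 0.

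Of the 25 genes called for share, 14 were also called deeper in brain and 1 shallower, against 53 and 47 of the 220 genes not called for share. The part of depth in the share calls was not tested. Across the 245 genes the logit difference in share and the log2 difference in depth had a Pearson r of -0.18, as a description over genes that share libraries.

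Of 24 genes reported as paternally expressed 7 were listed, 4 in brain and 6 in kidney, and 3 had a shared SNP. Of 36 reported as maternally expressed 18 were listed, 10 in brain and 18 in kidney, and 4 had a shared SNP. Over all 5354 listed genes 751 had one. PEG3 kept its paternal share, 85.8 ± 5.06% in brain and 87.1 ± 3.03% in kidney (SD, n = 8), although its depth differed as above. INPP5F, an inositol phosphatase gene, was listed in brain only in 6 fetuses and in both tissues in Con3. There it had 97.6% in brain at 275.5 reads per SNP and 70.3% in kidney at 38.75. DIRAS3, a Ras-like growth suppressor gene, had 80.5% in brain and 86.9% in kidney in 1 fetus.

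Among genes reported as maternally expressed, COPG2, a coatomer subunit, had 14.3%, 11.1% and 22.2% in brain, against 29.7%, 24.4% and 21.4% in kidney, for Con4, Con6 and Over4. It was deeper in brain (63 ± 29.5 reads against 24.5 ± 6.50 in kidney, SD, log2 difference 1.43, limma adjusted p = 0.00126) and was listed in brain only in 5 further fetuses. Con4 and Con6 share a ewe, so the fetuses behind this value of COPG2 are not all independent. GRB10, which restrains insulin signalling, was listed in kidney only in 6 fetuses and in both tissues at different SNPs in 1 (adjusted p = 0.0815). IGF2R, the receptor that clears insulin-like growth factor 2, was listed in kidney in 4 of 4 informative fetuses, with a paternal share of 12.2% at 204 reads per SNP, and in brain in 0. PPP1R9A, neurabin, was listed in kidney only in 8 fetuses and in brain only in 1 (adjusted p = 0.0967). In the 1 fetus that shared it the paternal share was 28.4% in brain and 20.6% in kidney. GATM, an enzyme of creatine synthesis, had 18.6% in brain and 24.6% in kidney in 1 fetus, and BLCAP 79.5% in brain and 79.7% in kidney in 1.

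Diet was compared on the difference between the tissues. The paternal share differed between brain and kidney by -2.47 ± 0.63 points in overfed, -1.77 ± 1.26 in restricted and -3.22 ± 1.41 in control ewes (SD, 4 ewes each, littermates averaged). Overfed minus control was 0.74 points (exact two-sided permutation test, p = 0.429) and restricted minus control 1.45 points (p = 0.171), with adjusted p of 0.714 and 0.571 over 10 such tests, where 4 against 4 ewes can reach 0.0286. By limma 0 of 79 genes differed between overfed and control (0%, 3 at an unadjusted p under 0.05) and 0 of 78 between restricted and control (0%, 0 at an unadjusted p under 0.05). The smallest adjusted p were those of POFUT2, RFXANK (both 0.848) and TMEM59 (0.881) for overfeeding and of LOC106991149, DDX19A and LOC101105123 (0.801 each) for restriction, with 2 to 3 ewes per diet. No difference by diet was detectable at this number of ewes.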

How the data were processed

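RNA of fetal brain and kidney was sequenced, and reads were assigned to parental alleles at SNPs that were heterozygous in the fetus and homozygous in its ram. The deposited values are estimated counts per allele: per the labels, the authors mapped the reads to the reference and to an alternative genome, and took the mean coverage, which leaves 64.8% of the entries with a value that is not whole. They were used without rounding. Trimmomatic 0.33, HISAT2 2.0.5, Picard and SAMtools are named in the submitters' processing notes. The sources used here name no genome build (not given), and positions and gene symbols are those of the deposited lists. Ram lists gave genotypes only.

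Fetuses were paired by diet and number. The pairing comes from the animal and rests on the labels. The genotype lists could not test it, because entries are given only at SNPs of the list with the same label. Reads were summed per gene and fetus over shared SNPs, with 0.5 read added to each allele for the logit, and within-fetus differences were tested with limma 3.58.1 under R 4.3.3 (with data.table, version 1.17.8) where a gene had 3 or more fetuses. Benjamini-Hochberg adjustment ran over the whole table, and a call needs an adjusted p under 0.05. Genes were compared for listing by an exact sign test where at least 6 fetuses listed them in 1 tissue only, and values per fetus by exact sign-flip permutation (Python 3.11.15, pandas 2.3.3, scipy 1.17.1). All tests were two-sided. The fits for share and depth, the sign test for listing and the sign-flip test were also run on simulated data. Intervals cover counting error only, and reads without molecular identifiers are not independent molecules. X entries (680 in brain, 782 in kidney) were left out. Littermates were recognised by a shared number in their labels, which gave 12 ewes (1 number marks 3 control fetuses and another 2, unlike the 3 sets of twins in the labels), and 3 sequencing runs in the labels are not assigned to libraries. The fetuses are separate animals, but littermates are not independent.

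Members, lists and alternatives were chosen with earlier results of these data known. The text names the 10 called genes of largest change with 1 sign in every fetus per direction for share and depth, filled up to 5 with the next smallest adjusted p; the 10 of smallest p per direction for listing; the genes most often on opposite sides; the 3 smallest adjusted p per diet contrast; and imprinted and marker genes that were shared. Some genes that this rule picks are not reported here. Alternatives covered the pairing, the reads added, depth, widely heterozygous SNPs, centring and each fetus left out.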

Additional observations from a re-analysis of the deposited data

How the results depend on the processing

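The fit with the fetus as a block used the pairing by animal. With no replicate block, depth calls numbered 58 in place of 115 and share calls 29 in place of 25. The count of depth calls was 49 with at least 40 reads in both tissues (of 85 genes), 65 with at least 5 fetuses (of 129), 57 without centring and, as an alternative chosen after seeing the data, 53 without SNPs heterozygous in 10 or more fetuses (of 126). The count of share calls was 14 with at least 40 reads and 4 without those SNPs. The count of listing calls, 30, became 3 with at least 40 reads, 48 with SNPs as features, 0 with 1 fetus per ewe and, both chosen after seeing the data, 0 without those SNPs and 0 without the 6 fetuses with a library under 400 SNPs. Without SNPs heterozygous in 10 or more fetuses the differences per fetus were -1.42 points for the paternal share (adjusted p = 0.0851), 0.729 points for the allele with more reads (adjusted p = 0.226) and -1.20 points for the reference base (adjusted p = 0.136). Without those 6 fetuses the depth difference was -0.35 on the log2 scale (adjusted p = 0.0488). With each fetus left out singly, share calls ran from 21 to 28, depth calls from 94 to 114 and listing calls from 0 to 26. Fewer genes or fetuses enter most of these alternatives, and otherwise the cause was not tested. No difference per fetus and no named gene's difference changed sign in these alternatives, but the larger direction among the calls did: depth calls were 67 higher and 48 lower in brain, against 24 and 33 without centring. Listing calls were 11 of brain and 19 of kidney, against 7 and 4 without Con4 and 2 and 1 with at least 40 reads. Depth limits the kidney shares of PPP3CB and ATP6V0D1, which rest on 20.5 to 38.5 reads.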
